A study of Homo sapiens with 8 samples.

Results

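The insulin-like growth factor (IGF) axis was examined in LNCaP cells, a line from a human prostate cancer metastasis, after transfection with siRNA directed at GATA2. Its members here were the growth factors IGF1 and IGF2 and the binding proteins IGFBP1 to IGFBP7. The 9 genes were chosen with earlier results of these data known. Every array probe whose RefSeq accession maps to one of those symbols was then taken, without regard to its own values. This gave 11 of the 42405 non-control probes, with 2 probes each for IGF1 and IGF2 and a single probe for each binding protein. Of the 9 genes, 7 passed the filter on dim probes and were tested among 28850 genes. IGFBP6 and IGFBP7 did not pass it. Of the 28850, 17858 had a gene symbol, and the rest were accessions or loci counted as genes under their own names. Shares of all genes given below are over all 28850 unless another setting is named.

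Cells of both groups received 30 nM of an siRNA in oligofectamin reagent, and total RNA was taken 72 h later. The siRNA was directed at GATA2 in the siGATA2 group and was a scrambled sequence in the siControl group. Each group was measured on 4 single-colour Agilent arrays. The labels number these as replicates without saying that they were separate cultures, so p-values measure the spread between these samples only. The model is a single cell line grown alone, with no stromal cells. The comparison asked which transcripts differ after GATA2 silencing.

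IGF1 and IGF2 are secreted peptides that act through the receptor tyrosine kinase IGF1R, and IGF2 is also taken up and cleared by IGF2R. The binding proteins hold most IGF outside cells, can block or prolong its action, and are cut by proteases that set it free. In the prostate the axis is known for carrying growth signals from stroma to epithelium, and prostate-specific antigen, the product of KLK3, is one of the proteases that cut IGFBP3. Background of this kind is not a result of these arrays.

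All values below are log2 processed signals after quantile normalization unless stated otherwise. Log2 fold changes are given as siGATA2 minus siControl, so a negative one is a lower signal on the siGATA2 arrays. A gene was called where limma gave a Benjamini-Hochberg adjusted p under 0.05 over the 28850 genes. Probes well above background numbered 34108 to 36729 on the siGATA2 arrays and 23994 to 34570 on the siControl arrays, being lowest on siControl arrays 1 and 3. All 9 prostate luminal markers examined were well above background on all 8 arrays. The stromal markers COL3A1 and LUM were so on none, and among the other stromal markers only COL1A1 was so on all 8. The endothelial markers PECAM1 and TEK and the leukocyte marker HLA-DRA were above background on no array, while VWF, CDH5, PTPRC and CD14 were on all 8. The summed linear signal of the 5 endothelial markers was 795 to 1029 on the siGATA2 arrays and 1167 to 1435 on the siControl arrays, and that of the 6 leukocyte markers was 1212 to 1383 and 673 to 810. The sums of the 8 stromal markers, 445 to 888 and 658 to 1095, overlapped. The part of these markers in the results was not tested.

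GATA2, the targeted gene, read 12.61, 12.54, 11.57 and 11.40 on siGATA2 arrays 1 to 4 and 11.74, 11.28, 11.10 and 11.29 on siControl arrays 1 to 4. Its signal was therefore not lower on the arrays labelled siGATA2, with a difference of 0.68 log2 units, a standard error (SE) of 0.312 and an adjusted p = 0.154 from limma. The paper reports that GATA2 protein was markedly reduced by siGATA2 in LNCaP cells, and protein was not measured on these arrays. Every direction given here rests on the labels.

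IGF2 rose and IGFBP2 and IGFBP5 fell on the arrays labelled siGATA2, and the other 4 tested members were not called. IGF2 was 4.95-fold higher on the brighter of its 2 probes, while the other probe was not called and the mean over both gave a log2 fold change of 1.19. IGFBP2 was 1.87-fold lower. IGFBP5 was well above background on no siGATA2 array, so its fold was set against the lowest signals well above background there. The mean of all 4 siControl arrays was 4.18-fold above that floor. The mean of the 2 siControl arrays where it was well above background was 5.72-fold above it. Normexp background correction left a log2 fold change of -0.70. IGFBP5 passed the filter on dim probes only through the siControl arrays. Thus 2 of the 7 tested members were called lower, where 14.2% of all tested genes were, and 1 was called higher, where 12.3% were. With a change of at least 2-fold as well, 1 member was lower and 1 higher, beside 7.13% and 4.52% of all genes. The median log2 fold change of the 7 tested members was -0.58, and that of all genes was 0.09. No test of the family as a whole was made. RNA was measured in bulk, so a smaller number of expressing cells and less RNA per cell cannot be told apart.

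**Figure D1:**
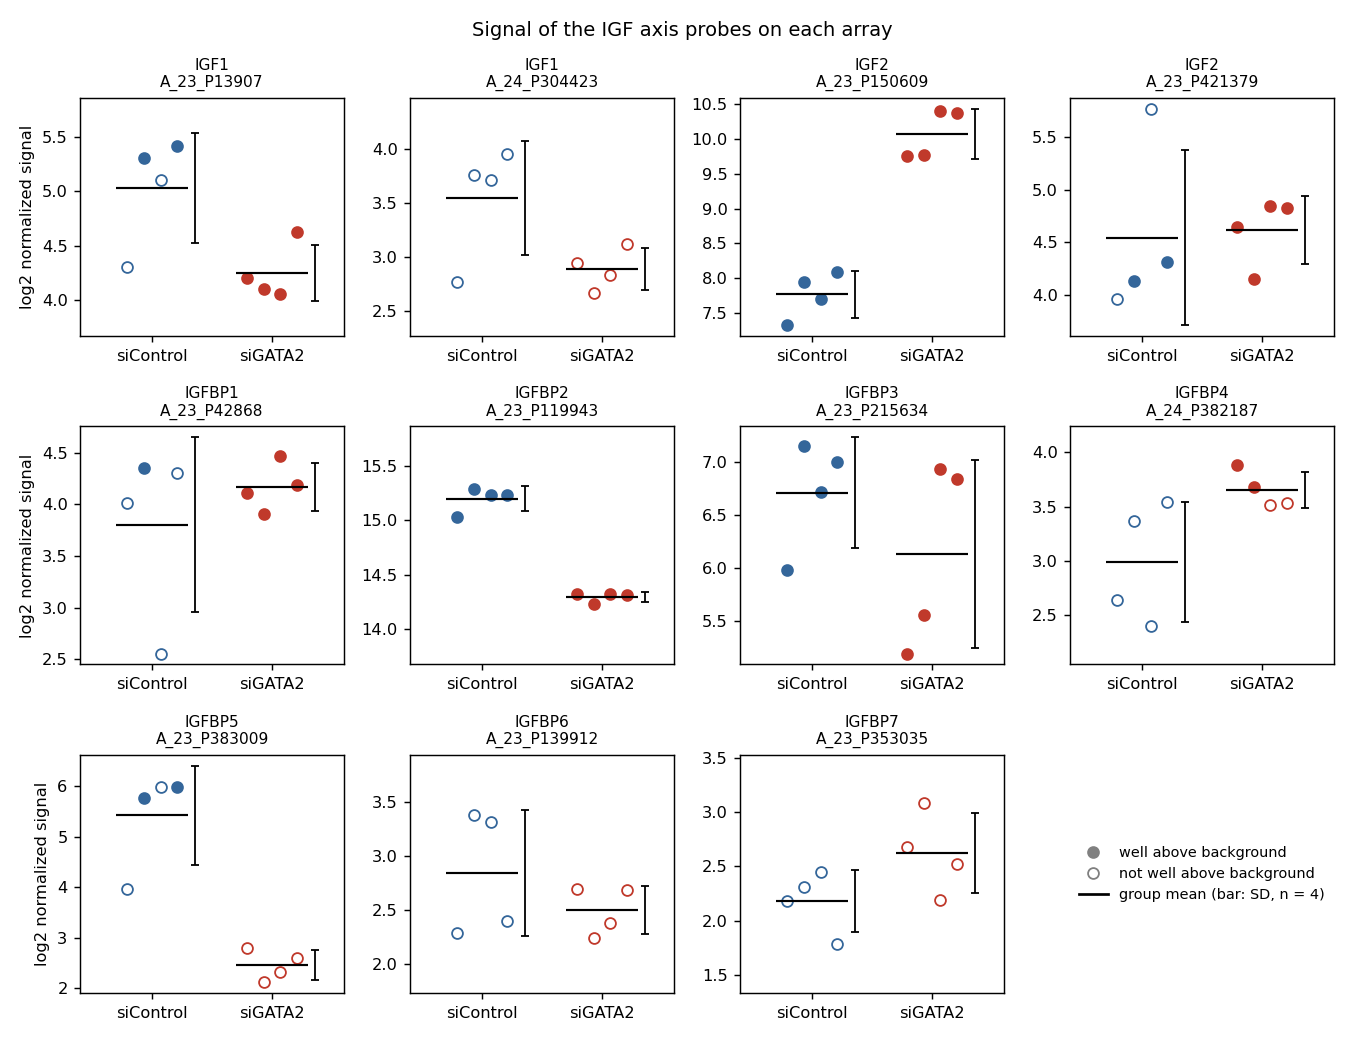
Log2 normalized signal (vertical axes, each panel with its own range) of the 11 probes of the IGF axis on the 4 siControl and 4 siGATA2 arrays, with the group mean and its SD. Filled points are arrays on which the probe was well above background. The 2 groups stand apart for IGF2 probe A_23_P150609, IGFBP2 and IGFBP5 and overlap in the other 8 panels.

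Of the ligands, IGF2, a fetal growth factor expressed from an imprinted locus, showed the rise. Its probe A_23_P150609 read 9.76, 9.77, 10.39 and 10.37 on siGATA2 arrays 1 to 4 and 7.33, 7.95, 7.71 and 8.08 on siControl arrays 1 to 4. All 4 siGATA2 arrays lay above all 4 siControl arrays, and the probe was well above background on all 8. The means were 10.07 ± 0.359 (SD, n = 4) and 7.77 ± 0.332 (SD, n = 4), with a log2 fold change of 2.31 (SE 0.229, adjusted p = 0.000238, limma). By an exact two-sided permutation test p was 0.0286, the smallest that 4 against 4 arrays allow. Groups that did not overlap, with siGATA2 higher, were seen for 16.1% of all genes.

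The other IGF2 probe, A_23_P421379, which the array maker assigned to the same accession, did not show this rise. It read 4.64, 4.16, 4.85 and 4.83 on siGATA2 arrays 1 to 4 and 3.96, 4.13, 5.77 and 4.31 on siControl arrays 1 to 4. The groups overlapped, and the log2 fold change was 0.08 (SE 0.397, adjusted p = 0.905, limma over all probes). This probe was well above background on all 4 siGATA2 arrays and on siControl arrays 2 and 4, and siControl array 3, on which it was not, gave the highest value. The disagreement between the probes was not resolved, and averaging them lowered the log2 fold change of IGF2 to 1.19 (adjusted p = 0.0109, limma). The first probe has a single spot on each array and the other has 2.

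On chromosome 11 IGF2 lies next to INS, the insulin gene, and to INS-IGF2, a read-through transcript that shares sequence with IGF2 and was not measured separately here. INS was called higher with a log2 fold change of 0.55 (SE 0.145, adjusted p = 0.0247, limma) and was well above background on 7 of 8 arrays. TH, the tyrosine hydroxylase gene on the far side of INS, was not called (0.03, adjusted p = 0.83, limma). Among 13141 genes well above background on all 8 arrays, the 2 whose centred values were closest to those of IGF2 were RUNDC3A, with a root mean square difference of 0.109 log2 units over the 8 arrays, and SSBP2, with 0.111. Their own log2 fold changes, 2.36 and 2.29, are near that of IGF2 by the way the 2 genes were chosen.

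IGF1, the other ligand, was dim. Probe A_23_P13907 read 4.20, 4.10, 4.06 and 4.62 on siGATA2 arrays 1 to 4 and 4.30, 5.31, 5.11 and 5.42 on siControl arrays 1 to 4. Only siControl array 1 overlapped the siGATA2 arrays. The log2 fold change of -0.79 (SE 0.262) was not called, with an adjusted p = 0.0611 from limma and p = 0.0571 from an exact two-sided permutation test. The probe was well above background on 4 siGATA2 arrays and on siControl arrays 2 and 4. IGF1 was called lower without siControl array 1, with a log2 fold change of -0.99 and an adjusted p = 0.00451 (limma). It was also called with only siControl arrays 2 and 4 as the control (-1.14, adjusted p = 0.0111, limma). Array weights called it as well (-1.03, adjusted p = 0.0026, limma). These were the only 2 calls of IGF1 among 12 other processing settings. Of the 8 fits with 1 array left out, only 1 called it, that without siControl array 1. The weakest result came after scaling to the 75th percentile (-0.40, adjusted p = 0.302, limma). The other IGF1 probe, A_24_P304423, was well above background on no array, so its values of 2.67 to 3.12 and 2.77 to 3.96 are bounds.

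IGFBP2, a binding protein that prefers IGF2 over IGF1, fell by a small and even amount. It read 14.32, 14.22, 14.32 and 14.31 on siGATA2 arrays 1 to 4 and 15.04, 15.29, 15.24 and 15.24 on siControl arrays 1 to 4. The gap between the groups was wide beside the spread within each. The means were 14.30 ± 0.0475 (SD, n = 4) and 15.20 ± 0.113 (SD, n = 4), and the log2 fold change was -0.91 (SE 0.0985, adjusted p = 0.000368, limma). The exact permutation p was 0.0286 (two-sided), and groups that did not overlap, with siGATA2 lower, were seen for 16.4% of all genes.

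IGFBP2 was also read closely within an array, with 9 or 10 unflagged spots of its probe and an SD of 0.0271 to 0.0554 log2 units over the spots of an array. Before normalization its intensity was 17224, 16967, 23125 and 22271 units on siGATA2 arrays 1 to 4 and 20819, 54770, 43602 and 46066 units on siControl arrays 1 to 4. On that scale siControl array 1 lay within the siGATA2 range, and after quantile normalization it lay with the other siControl arrays. That array was dimmer as a whole, with an upper quartile of 9.87 on the log2 scale before normalization against 10.54 to 10.99 on the other 7. Without siControl array 1, and in each of the other 7 fits with 1 array left out, IGFBP2 stayed called, with log2 fold changes of -0.95 to -0.88.

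**Figure D2:**
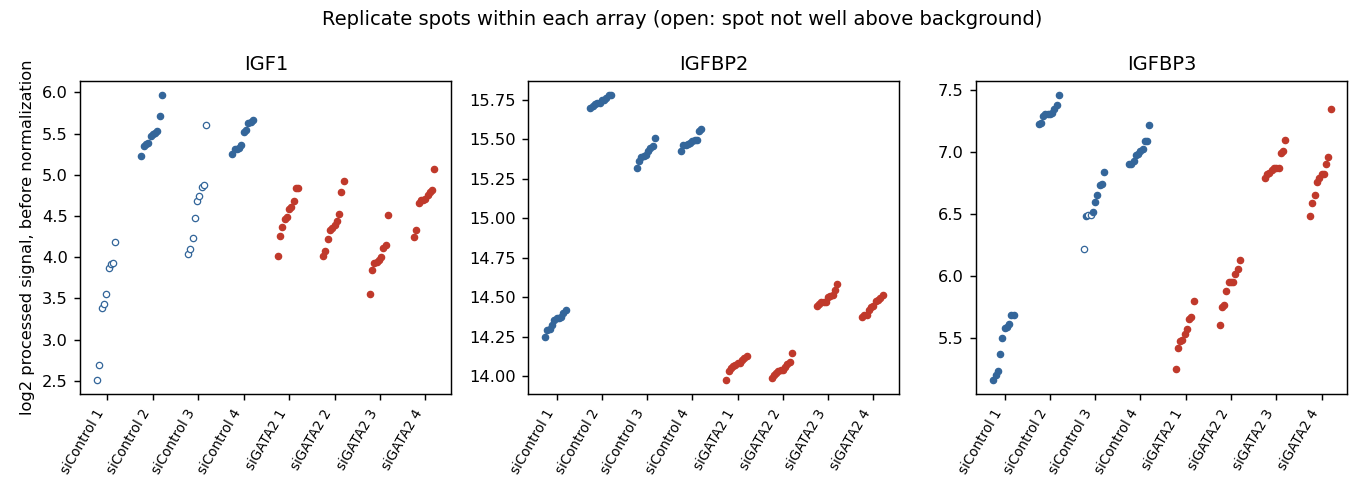
Log2 processed signal before normalization (vertical axis) of each unflagged replicate spot of the IGF1, IGFBP2 and IGFBP3 probes, the members printed in 10 spots, on each array (horizontal axis), sorted within the array. Spots of IGFBP2 lie close together on every array, and siControl array 1 lies near the siGATA2 arrays at 14.35 while the other siControl arrays lie at 15.41 to 15.74.

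IGFBP5, a binding protein that also attaches to extracellular matrix, was dim on every array labelled siGATA2. It read 2.80, 2.12, 2.33 and 2.60 on siGATA2 arrays 1 to 4 and 3.96, 5.76, 5.98 and 5.99 on siControl arrays 1 to 4. The groups did not overlap, although siControl array 1 lay far below the other siControl arrays. Before normalization its intensity was 7.97 units on siControl array 1 and 3.42 to 7.49 units on the siGATA2 arrays, and 53.4 to 64.1 units on the other siControl arrays. The probe was well above background on no siGATA2 array and only on arrays 2 and 4 of siControl.

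The readings as normalized averaged 2.46 ± 0.296 (SD, n = 4) and 5.42 ± 0.981 (SD, n = 4), and the test of those readings gave an adjusted p = 0.00214 (limma) and p = 0.0286 (exact two-sided permutation test). The siGATA2 mean lay under 3, the limit of the filter, so the probe passed it only through the siControl arrays. Fitted without the filter, the adjusted p was 0.00266 (limma). Groups that did not overlap, with siGATA2 lower, were seen for 16.4% of all genes. Because no siGATA2 array measured the probe, the fold is given only against a floor. This floor, the lowest signal that was well above background, had a mean of 3.36 over the siGATA2 arrays. It is not a strict limit, since a probe can read above it without being well above background. Against it siControl arrays 2 and 4, with a mean of 5.87, were 5.72-fold higher. The mean of all 4 siControl readings, of which those of arrays 1 and 3 were not well above background, was 4.18-fold higher than the floor.

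The size of this difference moved with the processing. Normexp background correction, whose offset shrinks the change of dim probes by construction, left a log2 fold change of -0.70 (adjusted p = 0.00587, limma). Using only siControl arrays 2 and 4 gave -3.84 (adjusted p = 0.000563, limma). A filter that kept only probes well above background on at least 4 arrays left IGFBP5 out.

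IGFBP2 and IGFBP5, the members called lower, lie next to each other on chromosome 2 with their 3′ ends facing. Their outer neighbours, RPL37A beside IGFBP2 and TNP1 beside IGFBP5, were not called, with log2 fold changes of -0.26 (adjusted p = 0.129) and 0.14 (adjusted p = 0.758), both from limma. IGFBP1 and IGFBP3 form a similar pair on chromosome 7 and neither was called. TNS3, a focal adhesion gene next to IGFBP3, fell by 3.03 on the log2 scale (SE 0.28, adjusted p = 0.000168, limma). TNS3 and the outer neighbours were chosen by position, outside the rule by which genes are named in the text. Neighbours of other members were called too. Beside IGFBP4, TOP2A had a log2 fold change of -1.94 (adjusted p = 0.000524, limma) and TNS4 one of 0.84 (adjusted p = 0.0212, limma). PMCH, beside IGF1, was not called (adjusted p = 0.994, limma).

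The start regions of the genes called lower are shown because GATA2 is a DNA-binding factor, together with the single member window that held a GATA motif, which is one of IGF1. RefSeq promoter windows on GRCh38.p14 were at hand for 6 members, in 9 windows of 300 bases from 250 before to 50 after a start. IGF2, IGFBP1 and IGFBP7 had no window. The 250 bases before the start are printed 5′ to 3′ on the gene's strand. Capitals mark a GC box (GGGCGG on either strand) for IGFBP2 and a GATA motif for IGF1, and IGFBP5 has neither.
IGFBP2, chr2:216633170-216633419, plus strand: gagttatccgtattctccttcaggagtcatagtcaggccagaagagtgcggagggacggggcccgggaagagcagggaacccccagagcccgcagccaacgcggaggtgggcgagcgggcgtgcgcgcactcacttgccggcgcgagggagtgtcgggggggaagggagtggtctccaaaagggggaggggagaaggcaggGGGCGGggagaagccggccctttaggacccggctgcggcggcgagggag
IGFBP5, chr2:216695550-216695799, minus strand: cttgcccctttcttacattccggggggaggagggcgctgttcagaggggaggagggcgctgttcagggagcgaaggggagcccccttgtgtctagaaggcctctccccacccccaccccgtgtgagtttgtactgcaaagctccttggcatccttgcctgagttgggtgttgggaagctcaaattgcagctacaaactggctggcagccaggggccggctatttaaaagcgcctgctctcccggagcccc
IGF1, chr12:102478551-102478800, minus strand: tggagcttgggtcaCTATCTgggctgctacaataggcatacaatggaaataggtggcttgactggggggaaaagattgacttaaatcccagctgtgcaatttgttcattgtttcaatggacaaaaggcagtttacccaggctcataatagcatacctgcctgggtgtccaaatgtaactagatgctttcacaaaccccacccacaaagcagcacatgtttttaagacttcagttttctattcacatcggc

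The GATA motif was searched on both strands as AGATAA or with G as its last letter, and as TGATAA or with G as its last letter, and 25.0% of 35116 windows of all genes held at least 1. In the IGF1 window it began at position -236 from the start. None of the other 8 member windows held one. The GC box was in 45.0% of all windows and in windows of IGFBP2, IGFBP3, IGFBP4 and IGFBP6. A TATA box (TATAAA, on the strand of the gene) was in 7.33% of windows and, of the members, in that of IGFBP4, and an E-box (CACGTG) was in 7.26% and in no member window. The IGFBP2 window shown, the richest in CpG of its 3, was 70.0% G and C and held 28 CpG pairs over 300 bases, and that of IGFBP5 was 59.0% with 9, beside medians of 58.7% and 14 over all windows. These matches describe the letters only and say nothing of binding.

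IGFBP3, the main carrier of IGF in blood and a substrate of prostate-specific antigen, varied widely among the siGATA2 arrays. It read 5.20, 5.56, 6.93 and 6.84 on siGATA2 arrays 1 to 4 and 5.98, 7.15, 6.72 and 7.00 on siControl arrays 1 to 4. The low values were those of siGATA2 arrays 1 and 2 and of siControl array 1. Those arrays also had the lowest array weights, 0.237 to 0.354, against 1.01 to 6.40 on the others. The log2 fold change was -0.58 (SE 0.455, adjusted p = 0.389, limma), and -0.39 with array weights (adjusted p = 0.327, limma). The probe was well above background on all 8 arrays and the SD over its spots was 0.0672 to 0.238 within an array. GATA2 itself was higher on siGATA2 arrays 1 and 2 than on arrays 3 and 4, as given above. Whether the IGFBP3 values go together with those of GATA2 or with the array weights was not tested.

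IGFBP1, a binding protein best known from liver, was dim and uncalled. It read 4.11, 3.91, 4.47 and 4.19 on siGATA2 arrays 1 to 4 and 4.01, 4.35, 2.56 and 4.30 on siControl arrays 1 to 4. The low value of siControl array 3 set the sign of its log2 fold change of 0.36 (SE 0.392, adjusted p = 0.531, limma), which was -0.060 without that array. The probe was well above background on 4 siGATA2 arrays and 1 siControl array.

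IGFBP4, which blocks IGF action until it is cut by PAPPA, read 3.88, 3.68, 3.52 and 3.53 on siGATA2 arrays 1 to 4 and 2.64, 3.37, 2.40 and 3.54 on siControl arrays 1 to 4. The groups overlapped, and the probe was well above background on siGATA2 arrays 1 and 2 only. The log2 fold change of 0.67 (SE 0.267, adjusted p = 0.109, limma) was not called. Scaled to the E1A spike-in probes, it was -0.30.

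IGFBP6, which binds IGF2 by preference, read 2.24 to 2.70 on the siGATA2 arrays and 2.29 to 3.38 on the siControl arrays. IGFBP7, which binds IGF only weakly, read 2.19 to 3.08 and 1.78 to 2.44. Neither was well above background on any array, so these arrays give no level for either beyond a bound. Fitted without the filter, their log2 fold changes were -0.34 (adjusted p = 0.425) and 0.44 (adjusted p = 0.203), both from limma.

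**Figure D3:**
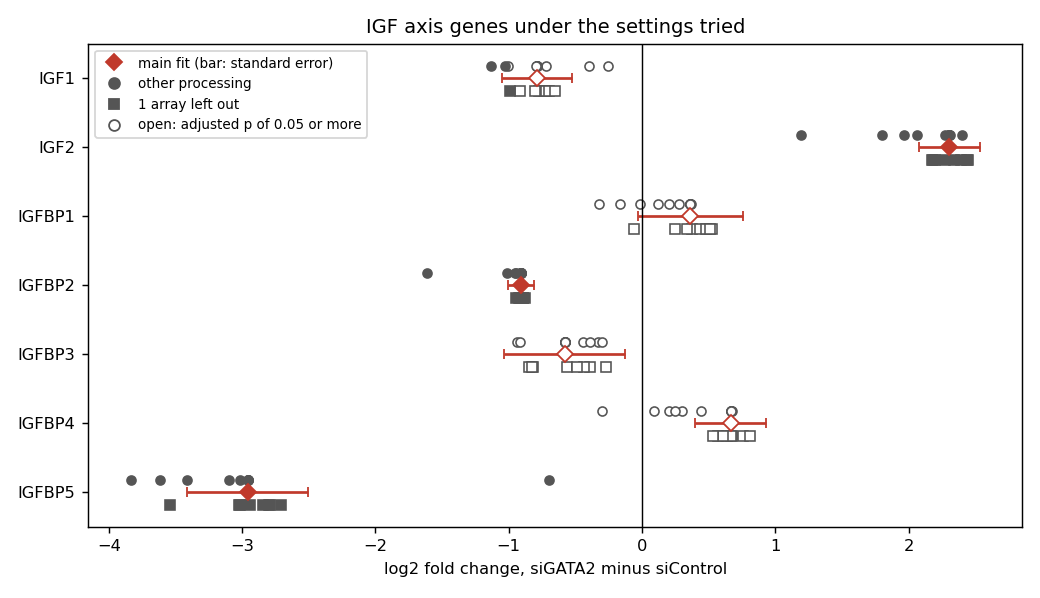
Log2 fold change, siGATA2 minus siControl (horizontal axis), of the 7 tested members with its SE (diamonds), under the other processing settings (circles) and with 1 array left out (squares). Filled marks have an adjusted p under 0.05. IGF2 runs from 1.19 to 2.44, IGFBP2 from -1.62 to -0.88 and IGFBP5 from -3.84 to -0.70, all filled, and IGFBP1 and IGFBP4 have marks on both sides of 0.

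Around the members, 52 genes of the IGF pathway were listed by role, and 49 of them were tested. Of these, 9 were called lower (18.4%) and 11 higher (22.4%), beside 14.2% and 12.3% of all genes, and 29 were not called. With siControl arrays 2 and 4 alone as the control the counts were 6 and 10, beside 12.9% and 9.49% of all genes. Scaling to the E1A spike-in probes, which were dimmer on siControl array 1 (11.13) than on the other arrays (13.45 to 13.83), moved the median of all genes from 0.09 to -0.43. Under it 5 pathway genes were called lower and 0 higher, and the shares of all genes called were 6.59% and 0.489%. IGF2, IGFBP2 and IGFBP5 kept their directions and calls under that scaling. Relative to the median of all genes their log2 fold changes were 2.23, -1.19 and -3.19 with it and 2.22, -0.99 and -3.05 without it.

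Of the 6 genes of receptors and of the circulating ternary complex, 1 was called lower and 2 higher, with a median of -0.00055. These shares were 16.7% and 33.3%, beside 14.2% and 12.3% of all genes. IGF1R, the signalling receptor, had a log2 fold change of -0.43 (SE 0.164, adjusted p = 0.094, limma) and was not called. IGF2R, which removes IGF2, had 0.31 (SE 0.12, adjusted p = 0.0973, limma) and was not called either. INSR, the insulin receptor, whose shorter form also binds IGF2, rose by 0.86 (SE 0.189, adjusted p = 0.012, limma). IGFALS, the acid-labile subunit that joins IGF and IGFBP3 or IGFBP5 in the ternary complex, rose by 1.59 (SE 0.195, adjusted p = 0.000679, limma). Its values were 7.49 to 7.95 on the siGATA2 arrays and 5.89 to 6.60 on the siControl arrays. IGFBPL1, a gene named for its likeness to the binding proteins, was lower by a log2 fold change of -0.42 (adjusted p = 0.0368, limma).

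Proteases that cut binding proteins, and their inhibitors, made up a list of 13 genes, of which 11 were tested, 3 called lower and 1 higher, with a median of -0.09. These shares were 27.3% and 9.09%, beside 14.2% and 12.3% of all genes. KLK2, a kallikrein of prostate secretion, fell by 1.84 on the log2 scale (SE 0.317, adjusted p = 0.00372, limma), from 12.72 to 13.23 on the siControl arrays to 10.53 to 11.87 on the siGATA2 arrays. KLK3 fell by 1.63 (adjusted p = 0.0321, limma), and STC1, an inhibitor of PAPPA, fell by 0.66 (adjusted p = 0.0177, limma). PAPPA itself had -0.91 with an SE of 0.517 (adjusted p = 0.24, limma) and was not called. C1S, a complement protease that can cut IGFBP5, rose by 1.78 (SE 0.316, adjusted p = 0.00436, limma). A second C1S probe gave 0.74 and was not called (adjusted p = 0.184, limma over all probes). KLK3, STC1 and PAPPA were named after their values were seen.

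In the list of adaptors and of the PI3K-AKT branch, 27 of 28 genes were tested, and the median was 0.14. Of these 27, 4 were called lower (14.8%) and 7 higher (25.9%), beside 14.2% and 12.3% of all genes. GRB14, an adaptor that restrains the insulin receptor, fell by 1.44 (SE 0.113, adjusted p = 8.39e-05, limma). The other 3 called lower were PIK3R1 (-0.64) and PIK3R2 (-0.95), which encode regulatory subunits of PI3K, and RPTOR (-0.61), the scaffold of mTOR complex 1. FOXO1, a transcription factor held out of the nucleus by AKT, rose by 1.26. The other genes called higher were SOS2 (0.89), PIK3CA (0.63), PIK3CB (0.70), PIK3R3 (0.95), MTOR (0.42) and RICTOR (0.82). Called genes of the branch, among them catalytic and regulatory subunits of the same kinase, went in both directions, as did those of all genes. Apart from GRB14 and FOXO1, which had the largest fall and rise in the list as reported, these genes were named after their values were seen.

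Among 3 IGF2 mRNA-binding proteins and 2 imprinted genes of the IGF2 region, 1 gene was called in each direction. That is 20% each way, beside 14.2% lower and 12.3% higher of all genes. IGF2BP3, an RNA-binding protein of fetal tissue that binds IGF2 mRNA, fell by 1.18 (SE 0.103, adjusted p = 0.000133, limma), with values of 9.71 to 9.89 on the siGATA2 arrays and 10.86 to 11.12 on the siControl arrays. CDKN1C, an imprinted cell cycle inhibitor, rose by 1.83 (SE 0.103, adjusted p = 2.32e-05, limma), with values of 13.81 to 14.04 and 12.03 to 12.23. H19, the imprinted noncoding RNA beside IGF2, was not called on its brightest probe (-0.45, adjusted p = 0.0794, limma), while its other probe, above background on all 8 arrays, gave -1.50 (adjusted p = 0.00138, limma over all probes). H19 was named after its values were seen.

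**Figure D4:**
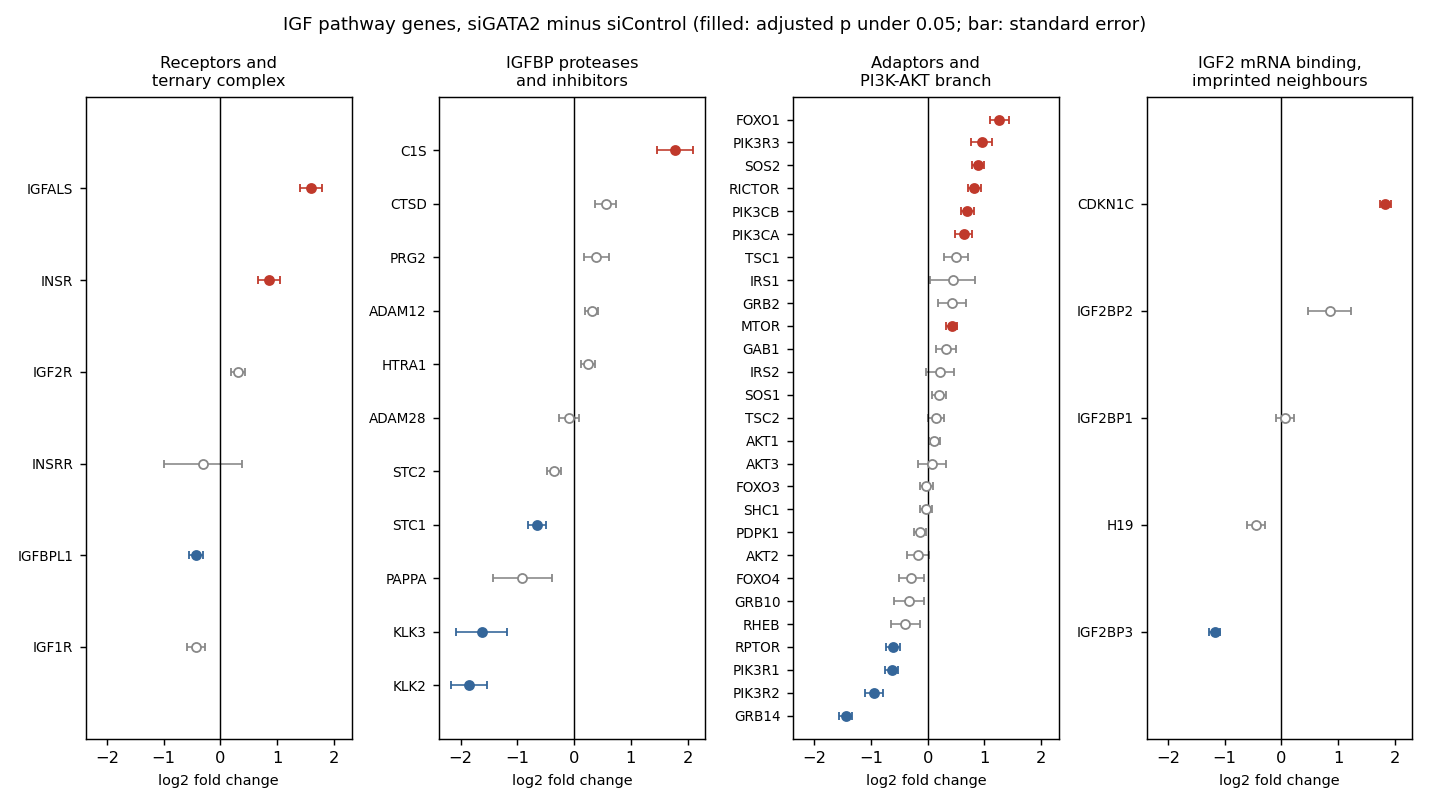
Log2 fold change, siGATA2 minus siControl (horizontal axes), with its SE, of the 49 tested pathway genes in 4 lists by role, sorted within each list. Filled points were called, 9 lower (blue) and 11 higher (red), and open points were not. IGFALS, C1S, FOXO1 and CDKN1C lie farthest to the right in their lists, and IGF1R, KLK2, GRB14 and IGF2BP3 farthest to the left.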

How the data were processed

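LNCaP cells transfected with siGATA2 or siControl were profiled on 4 single-colour arrays per group, grouped and numbered by their labels. The authors deposited spot intensity from Agilent Feature Extraction 11.0.1.1, as background-corrected processed signals with quality flags, and a matrix of log2 values. The methods name quantile normalization of processed signals. The array design in the file headers differs from the one the methods name.

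Spots flagged as outliers were left out, the log2 processed signals of the other spots of a probe were averaged, and the 8 arrays were brought to a common distribution by quantile normalization (limma 3.58.1, R 4.3.3). A probe was well above background on an array where a share over 0.5 of those spots carried that flag. Accessions were turned into symbols through a RefSeq table of GRCh38.p14, which held 26364 of 27902. Unannotated probes and those averaging less than 3 were dropped, and a gene was read from its brightest probe. Groups were compared with lmFit and eBayes rather than the t-test of the methods. The adjusted p threshold was 0.05 and the fold threshold 2. Probes other than the brightest were read from a separate fit of the same kind over the 35514 probes kept, with its own adjustment of p.

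All 8 arrays lay on 1 slide from 1 scan, in 2 rows, with 3 siGATA2 arrays and 1 siControl array in a row and the reverse in the other. No spot was saturated. Arrays have no read depth, and 4 per group limit the precision. The negative controls had SDs of 4.49 and 7.26 intensity units on siControl arrays 1 and 3 and of 1.78 to 2.40 on the others.

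The text names all members with every probe, GATA2, IGF1R, INSR, IGF2R and IGFALS, in each pathway list the called genes with the largest fall and rise among those well above background on every array of a group, and the 2 genes most like a member called at 2-fold and well above background on all arrays. Some neighbours on the chromosome are named besides. The members and lists were chosen with earlier results of these data known. A gene of the pathway lists is not reported here and is left out of their counts. Alternatives were other scalings, the deposited log2 values, background correction, filters, probe choice, the methods' t-test, blocks by replicate number and slide row, array weights and left-out arrays. The tumour cohorts, xenografts and cell assays were not analysed here.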

Additional observations from a re-analysis of the deposited data

Results flagged for a closer look

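A pair of the 24 groups of 4 arrays examined among the members and GATA2 held a value far from the rest of its group, and chance gives about 1 in 20. IGFBP5 read 3.96 on siControl array 1, where the other siControl arrays read 5.76 to 5.99. IGFBP2 read 14.22 on siGATA2 array 2, where the other siGATA2 arrays read 14.31 to 14.32. IGFBP5 and IGFBP2 were called lower with either array left out, with log2 fold changes between -3.54 and -2.71 and between -0.95 and -0.88 over the 8 fits with 1 array left out.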

How the results depend on the processing

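IGF2 and IGFBP2 kept their direction and call in all 12 alternatives and IGFBP5 in the 11 that could test it, and all 3 did so in the 8 fits with 1 array left out. The members called lower by at least 2-fold numbered 1, and 2 with 75th percentile scaling, E1A scaling, array weights or siControl arrays 2 and 4 only. They numbered 0 with normexp and 0 with the filter on at least 4 arrays, which also lowered the members called lower from 2 to 1 because it leaves IGFBP5 out. Of all genes, 2056 were called lower by at least 2-fold in the main fit, 1439 with normexp and 1970 with that filter. With 75th percentile scaling, E1A scaling, array weights and siControl arrays 2 and 4 only, 1882, 1899, 2193 and 2150 were. Pathway genes called lower numbered 9, but 5 with E1A scaling and 14 with array weights, under which 19.2% of all genes were called lower and 20.8% higher, and those called higher numbered 11, but 0 with E1A scaling. The causes of the other moves were not tested. The log2 fold change of IGFBP1 changed sign to -0.33 with E1A scaling, -0.015 with normexp, -0.17 with siControl arrays 2 and 4 only and -0.060 without siControl array 3, within a range of -0.060 to 0.52 over the fits with 1 array left out. That of IGFBP4 did so with E1A scaling (-0.30). With slide row as a block the log2 fold changes were 2.30 for IGF2 (adjusted p = 0.00227), -0.91 for IGFBP2 (0.00334) and -3.10 for IGFBP5 (0.00967), from limma.

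Deviations of same-numbered arrays correlated at 0.54, -0.31, 0.17 and 0.22 for replicates 1 to 4. Arrays with different numbers were not compared in this way, so whether the numbers pair the samples was not settled. With the replicate number as a block 2 members were called lower and 1 higher, as without it, and 8 pathway genes lower and 11 higher. Of all genes 12.9% were then called lower and 11.7% higher. The adjusted p was then 0.00229 for IGF2, 0.00797 for IGFBP2 and 0.0123 for IGFBP5 (limma).

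Signal over background limits IGF1, IGFBP1 and IGFBP4 to IGFBP7, whose probes were not well above background on all arrays.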
